A study of Mus musculus with 8 samples.

Results

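Integrins are cell surface receptors made of an alpha and a beta subunit, which hold epithelial cells to the matrix beneath them. The αv subunit pairs with β1, β3, β5, β6 or β8, and these heterodimers bind ligands that carry the tripeptide RGD. αvβ6 is an integrin of epithelia, and αvβ6 and αvβ8 can release active TGF-β from its latent complex. β6 is needed for enamel, since loss of ITGB6 causes amelogenesis imperfecta in humans and mice that lack Itgb6 form poorly mineralized enamel. β1 also pairs with α2, a collagen receptor, with α3, a receptor for laminin-332, and with α5, the fibronectin receptor.

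The 9 genes described here are Itgb6, Itgav, the other β partners of αv (Itgb1, Itgb3, Itgb5 and Itgb8) and the further α subunits Itga2, Itga3 and Itga5, taken by gene name from the 54532 genes of a read count table. The table compares first molar enamel organs of untreated C57BL/6 wt pups at P5, the secretory stage, with those at P12, the maturation stage. Each library was made from 5 pooled pups, and each age has 4 libraries (n = 4 pools). Libraries carry the replicate numbers of the labels, which are 1, 3, 4 and 5 at P5 and 1 to 4 at P12. A normalized count is the read count scaled to the libraries' mean effective size.

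Total counts were 16574548 to 20262601 at P5 and 17588152 to 22013456 at P12, and the counts of the 9 genes lay between 159 and 17563 in every library, far above the floor of 3 counts that counting error sets. All 4 genes for enamel matrix and its protease (Enam, Amelx, Ambn, Mmp20), taken as markers of secretion, were lower and all 5 maturation markers higher at P12. The labels call the cells epithelial in origin, but the libraries also held mesenchymal RNA. The mean normalized count at P5 was 620261 for Col1a1, a mesenchymal collagen. It was 34059.9 for the epithelial keratin Krt14 and 2705330 for Amelx of the ameloblasts, which are also epithelial. In such bulk samples fewer cells of a type and less RNA per cell cannot be told apart. At each age 1 library stood apart. P5 replicate 5 had a summed normalized count of maturation markers of 12880.2 where the remaining P5 libraries had 36789 to 44228. P12 replicate 4 had the highest sums at P12 of both maturation markers, 482565 against 356963 to 458253, and secretory markers, 621683 against 237041 to 433633, and the lowest sum of the oral keratins Krt13, Krt4, Krt6b and Krt24, 3152 against 19253 to 30595.

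The β subunits moved apart between the ages. Itgb6 was 2.19-fold lower at P12, whereas Itgb3 was 7.92-fold, Itgb8 4.82-fold, Itgb1 1.90-fold and Itgb5 1.22-fold higher. Among the α subunits, Itga3 was 2.28-fold and Itga2 1.29-fold lower, Itga5 was 1.71-fold higher, and Itgav did not pass the test. In all, 5 of the 9 genes were higher and 3 lower at P12 at an adjusted p under 0.05 in edgeR's quasi-likelihood test. The background is high, since 57.2% of the 16440 genes tested passed the same threshold, 28.8% higher and 28.4% lower. Of the genes called, 50.3% were higher at P12, and 79.2% when libraries were scaled by total count alone. The normalized counts did not overlap between the ages in 8 of the 9 genes, against 52.5% of all genes tested. The median log2 fold change was 0.29 over the 9 genes and 0.01 over all genes tested.

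**Figure D1:**
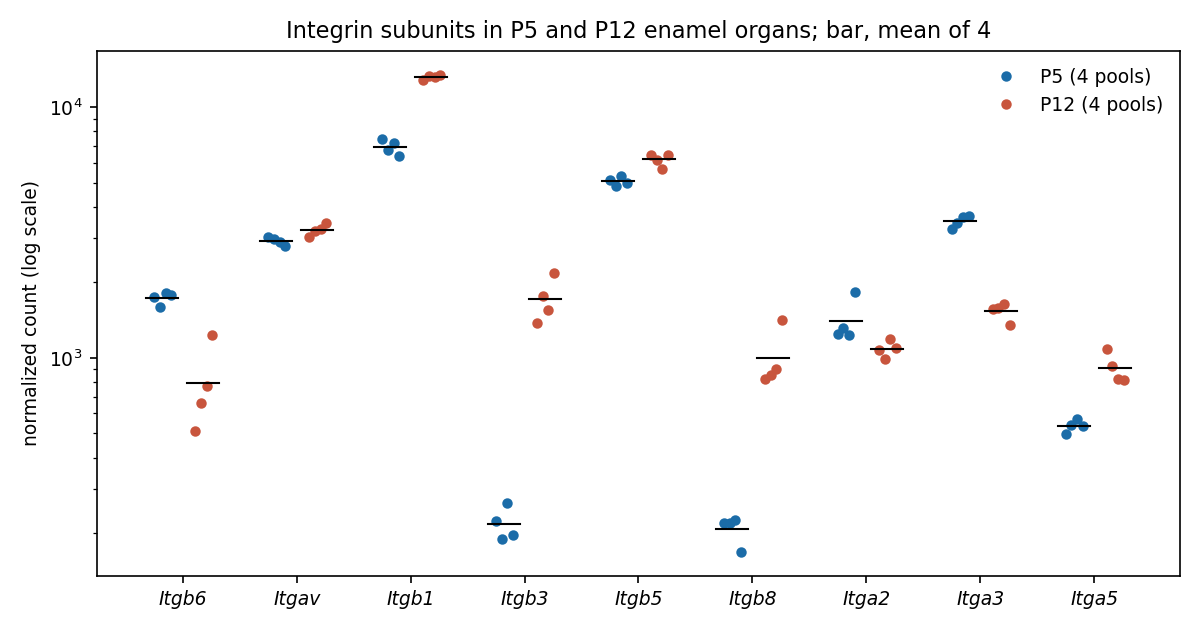
Normalized counts (log axis) of the 9 integrin genes in the 4 P5 and 4 P12 pools, each point a library and each bar the mean of 4. Itgb6 and Itga3 lie lower at P12, Itgb3 and Itgb8 rise from about 200 to over 800 in every P12 library, and the Itgav points of the ages overlap.

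Itgb6 (ENSMUSG00000026971, GRCm38 chromosome 2, 60598292 to 60722643 on the reverse strand) encodes the β6 chain, whose known α partner is αv. Its normalized counts were 1751, 1599, 1815 and 1776 in P5 replicates 1, 3, 4 and 5, and 512, 661, 769 and 1233 in P12 replicates 1 to 4. The P5 libraries lay close together and above all P12 libraries, and P12 replicate 4 was the highest of its age. The mean fell from 1735 ± 94.8 (SD, n = 4 pools) to 794 ± 311, and the log2 fold change was -1.13 (SE 0.21, edgeR adjusted p = 7.3e-04), where SE is the standard error of the fold change. Without P12 replicate 4 it was -1.43, and without that library and P5 replicate 5 together -1.42. The secretory marker Amelx was also highest at P12 in replicate 4, at 96613 against 23064 to 58081. So were the maturation markers Amtn, Klk4, Slc24a4 and Wdr72. Odam, the remaining maturation marker, was not, at 346241 against 365229 in replicate 2 and 357994 in replicate 3. The part of secretory and maturation cells in the Itgb6 level of P12 replicate 4 was not tested.

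Itgb6 was also lower relative to the epithelial genes Cdh1 and Epcam, the only ones it was set against. The log2 ratio of Itgb6 to Cdh1, which encodes E-cadherin, went from -1.59 ± 0.02 (SD, n = 4) at P5 to -2.48 ± 0.47 at P12 (difference -0.89). Against Epcam, an epithelial adhesion molecule, the ratio went from 1.82 ± 0.12 to -0.38 ± 0.56 (difference -2.20). In both cases no P12 library reached the P5 range (exact permutation test, two-sided p = 0.029, as low as 4 against 4 libraries can give, and 0.036 after Benjamini-Hochberg adjustment over 10 ratios). Epithelial genes did not move as a block. Krt14 and Krt5, keratins of basal epithelium, were higher at P12 with log2 fold changes of 2.22 and 1.30. Epcam was higher at 1.0, and Cdh1 was lower at -0.31 (but 0.06 under total count scaling). Krt8, a keratin of simple epithelium, was lower at -2.81, a larger fall than that of Itgb6. Krt18 did not pass, at 0.17 (adjusted p = 0.64). The oral keratins Krt13, Krt4, Krt6b and Krt24 summed to 438 to 845 normalized counts at P5 and 3152 to 30595 at P12. The part of oral epithelium in the levels of Cdh1, Epcam, Krt14 and Krt5, and so in these ratios, was not tested.

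The bases just upstream of the Itgb6 start are shown beside those of Itga3, which fell with it, and of Itgav, its partner, which did not pass the test. They come from RefSeq's GRCm38.p6 starts, cut so that they end before the first base of the gene in the deposited table, and capitals mark CG dinucleotides. The regions are chr2:60722644-60722853 (reverse strand) for Itgb6, chr11:95076802-95076964 (reverse strand) for Itga3 and chr2:83724147-83724396 (forward strand) for Itgav.
Itgb6: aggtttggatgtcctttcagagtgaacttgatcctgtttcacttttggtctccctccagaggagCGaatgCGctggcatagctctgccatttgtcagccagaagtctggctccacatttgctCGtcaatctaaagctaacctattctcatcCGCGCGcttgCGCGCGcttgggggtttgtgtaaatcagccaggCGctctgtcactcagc
Itga3: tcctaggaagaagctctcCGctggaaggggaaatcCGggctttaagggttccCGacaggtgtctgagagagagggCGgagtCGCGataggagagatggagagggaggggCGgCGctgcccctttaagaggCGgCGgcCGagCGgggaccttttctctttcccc
Itgav: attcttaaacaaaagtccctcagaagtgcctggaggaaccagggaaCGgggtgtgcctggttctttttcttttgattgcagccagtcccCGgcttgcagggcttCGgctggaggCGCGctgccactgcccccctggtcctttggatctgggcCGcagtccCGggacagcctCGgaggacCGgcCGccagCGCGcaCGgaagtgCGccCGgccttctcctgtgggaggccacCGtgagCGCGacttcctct
Itgb6 had 10 CG dinucleotides in 210 bases, Itga3 12 in 163 and Itgav 18 in 250.

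RefSeq gave a window of 300 bases, 250 before the start and 50 after it, for 8 of the 9 genes. Itgb3 had none. The window at the Itgb6 start nearest to that of the deposited gene was 50.3% G and C, near the median of 52.7% over 32851 windows. The corresponding windows of the other 7 genes were between 58.7% and 67.3%. The GC box, searched as GGGCGG on both strands, was in 35.7% of all windows and in those of Itgav, Itgb1, Itga3, Itga2, Itga5 and Itgb5, and not in those of Itgb6 or Itgb8. The CCAAT box (CCAAT) was in the Itgb8 window alone of these 8 and in 37.4% of all, and the E-box CAGCTG in those of Itga5 and Itgb5 and in 16.3% of all. The letters of the TATA box (TATAAA), of AP-1 (TGANTCA), of Runx (TGTGGT) and of a homeobox core (TAATTA) were in none of these 8 windows, against 13.6%, 7.81%, 16.8% and 5.29% of all windows. RefSeq lists a second start for Itgb6 and for Itga3 inside the gene, and the counts do not tell the starts apart. The window at the second Itga3 start held a GC box, a CCAAT box and the AP-1 and Runx letters. The RefSeq start of Itgb8 lies 526 bases inside the deposited gene, and the nearest starts of Itgb6 and Itga3 lie 40 and 87 bases inside theirs. That of Itga5 lies 28 bases before its deposited gene.

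Itgav (ENSMUSG00000027087, GRCm38 chromosome 2, 83724397 to 83806916 on the forward strand) encodes the αv chain shared by all 5 β partners. Its normalized counts were 3038, 2969, 2903 and 2788 at P5 against 3034, 3195, 3253 and 3466 at P12, and the ages overlapped. The log2 fold change was 0.15 (SE 0.06, edgeR adjusted p = 0.062), with a 95% interval of 0.01 to 0.28, so that a small rise is within the data. The antisense gene Gm13684 overlaps 5.90% of its exonic sequence, and since no use of strand is stated the reads there cannot be assigned. DESeq2 gave 0.15 with an adjusted p of 0.04, just inside the threshold, and scaling by total count alone gave 0.52 (adjusted p = 7.7e-06), or 0.14 once that scaling's median over all genes is taken off.

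Itgb3 (ENSMUSG00000020689, GRCm38 chromosome 11, 104608000 to 104670476 on the forward strand) had the largest change of the 9 genes. αvβ3 is known as the integrin of osteoclasts and of growing vessels, and β3 also pairs with αIIb on platelets. Its normalized counts were 222, 189, 262 and 197 at P5 against 1377, 1769, 1548 and 2182 at P12, and every P12 library was far above every P5 library. The log2 fold change was 2.98 (SE 0.15, edgeR adjusted p = 4.4e-08). Markers of these cell types also moved. The 6 osteoclast markers summed to 1059.8 to 1712 normalized counts at P5 and 3228 to 8048 at P12, with 5 of 5 tested higher and Calcr too low to test. The 5 endothelial markers were all higher and summed to 2278 to 2721 and 4397 to 4687. Of the 4 megakaryocyte and platelet markers tested, Itga2b, which encodes αIIb, and Ppbp were higher and Pf4 and Gp9 did not pass. The sums of these markers were 166 to 292 and 313 to 392. For scale, 28.8% of all genes tested were higher at P12. Itgb3 was highest at P12 in replicate 4, at 2182, where the osteoclast sum was lowest, at 3228. The endothelial sum was highest there, at 4687 against 4397 to 4630.0, but its genes went both ways. Kdr was highest in that library, at 1771 against 1263 to 1461. Pecam1 and Tek were lowest there, at 1209 and 293, with Cdh5 and Emcn in between. Without that library the log2 fold change of Itgb3 was 2.85. Markers of maturation ameloblasts were higher at P12 too. Wdr72 had the same order of libraries as Itgb3 at both ages, with 4977 in P12 replicate 4 against 2705 to 3968. Amtn, Klk4 and Slc24a4 were also highest at P12 in replicate 4, but Odam was highest in replicate 2. At P5 Amtn, Klk4, Slc24a4 and Odam were highest in replicate 1, whereas Itgb3 was highest in replicate 4. The part of any of these cell types in the Itgb3 level was not tested.

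Itgb8 (ENSMUSG00000025321, GRCm38 chromosome 12, 119158022 to 119238802 on the reverse strand) encodes the other β chain that can release TGF-β with αv. Its normalized counts were 219, 219, 225 and 168 at P5 against 821, 856, 906 and 1419 at P12. The ages did not overlap, with P5 replicate 5 low and P12 replicate 4 high within their ages. The log2 fold change was 2.27 (SE 0.18, edgeR adjusted p = 1.2e-06), and without P5 replicate 5 and P12 replicate 4 it was 1.96. These libraries were also at the ends of their ages for Slc24a4, a calcium exchanger of maturation ameloblasts, at 332 against 1581 to 2269 at P5 and 23172 against 12519.6 to 16758 at P12. The same held for Amtn and Klk4 but not for the other maturation markers. Odam was highest at P12 in replicate 2, at 365229 against 346241 in replicate 4. Wdr72 was lowest at P5 in replicate 3, at 192 against 199 in replicate 5. The part of the share of maturation cells was not tested.

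Itgb1 and Itgb5 were the most abundant of the 9 genes at both ages. Itgb1 (ENSMUSG00000025809, GRCm38 chromosome 8, 128685654 to 128733200 on the forward strand), the β chain with the most α partners, had normalized counts of 7459, 6760.4, 7192 and 6399 at P5 against 12877, 13259, 13228 and 13486 at P12, a log2 fold change of 0.93 (SE 0.07, edgeR adjusted p = 8.4e-07). The spread between libraries of an age was small against this difference. Itgb5 (ENSMUSG00000022817, GRCm38 chromosome 16, 33829665 to 33949338 on the forward strand), which pairs with αv as a vitronectin receptor, had 5118, 4862, 5291 and 4988 at P5 against 6465, 6176, 5664 and 6442 at P12. Its log2 fold change of 0.29 (SE 0.07, edgeR adjusted p = 0.003) was the smallest of the rises, although the ages did not overlap.

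Because a ratio within a library does not depend on how libraries are scaled, the β subunits were also set against Itgav. The log2 ratio of Itgb6 to Itgav went from -0.75 ± 0.11 (SD, n = 4) to -2.10 ± 0.45, a difference of -1.35. That of Itgb3 went from -3.75 ± 0.21 to -0.93 ± 0.21, that of Itgb8 from -3.82 ± 0.16 to -1.73 ± 0.29, and that of Itgb1 from 1.25 ± 0.06 to 2.03 ± 0.05. The ages did not overlap for these 4 ratios (exact permutation test, two-sided p = 0.029 for each, 0.036 after Benjamini-Hochberg adjustment over 10 ratios). The ratio of Itgb5 to Itgav overlapped between the ages, at 0.79 ± 0.07 and 0.93 ± 0.12 (difference 0.14, exact permutation test, two-sided p = 0.11).

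**Figure D2:**
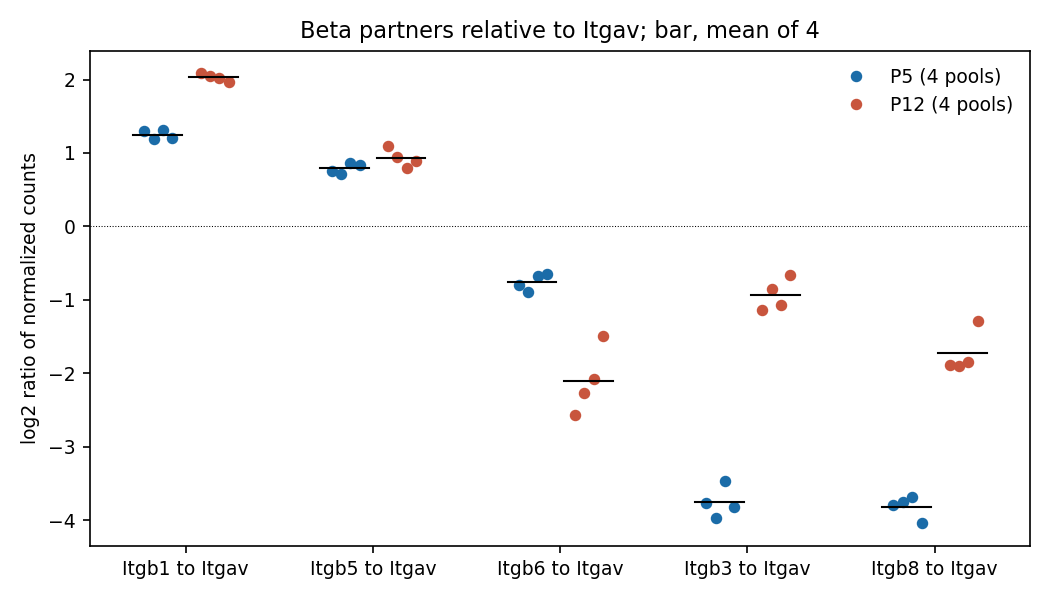
Log2 ratio of the normalized count of each β partner to that of Itgav, each point a library and each bar the mean of 4. Itgb6 lies below its P5 range in all P12 libraries, Itgb1, Itgb3 and Itgb8 lie above theirs, and Itgb5 overlaps.

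To compare levels between genes, normalized counts were divided by gene length in kilobases. The 5 β partners of αv summed to 3429 ± 165 normalized counts per kilobase (SD, n = 4) at P5 and 5472 ± 222 at P12. Itgb6 made up 6.89%, 6.81%, 7.15% and 7.64% of this sum in the P5 libraries and 1.34%, 1.70%, 2.05% and 2.995% in the P12 libraries, with no overlap (exact permutation test, two-sided p = 0.029). Itgb3 went from 1.07% ± 0.120 (SD, n = 4) to 5.30% ± 0.860, and Itgb8 from 0.547% ± 0.0580 to 1.64% ± 0.388. At P5 Itgb6 was thus above the sum of Itgb3 and Itgb8 in every library, and at P12 below it in every library. Itgb1 and Itgb5 held most of the sum at both ages, Itgb1 at 49.7% ± 1.36 and 59.2% ± 1.74, and Itgb5 at 41.6% ± 1.07 and 31.8% ± 1.61, but much of Itgb1 pairs with other α chains.

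**Figure D3:**
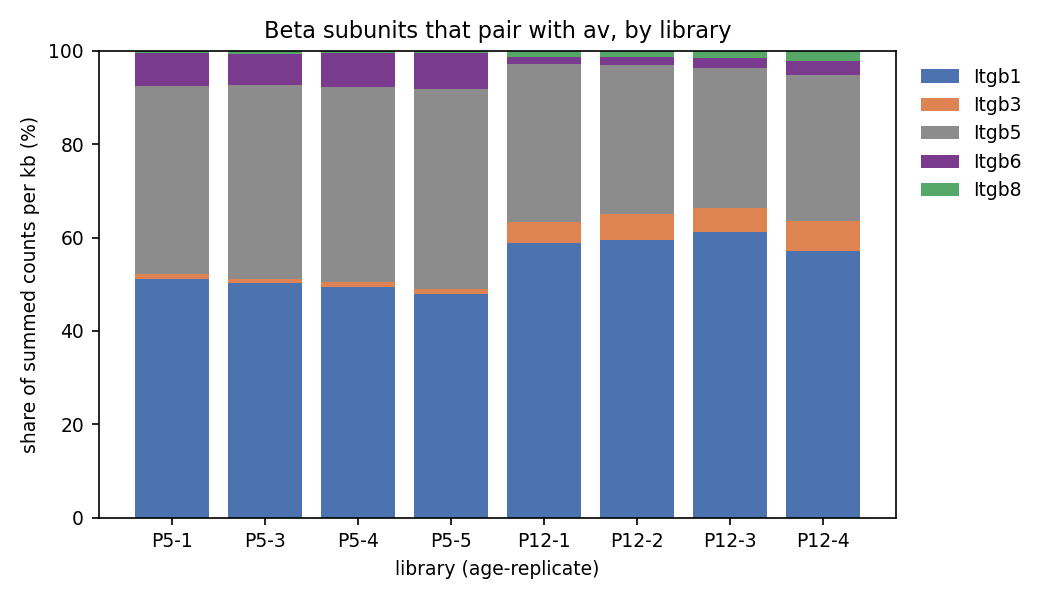
Share of each β partner of αv in their summed normalized counts per kilobase, by library (age, then replicate number). The Itgb6 segment is 6.81% to 7.64% in P5 libraries and 1.34% to 2.995% in P12 libraries, while the Itgb3 and Itgb8 segments widen.

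The order of the 9 genes per kilobase changed below the top ranks. At P5 it was Itgb1 (1704 ± 115, SD, n = 4), Itgb5 (1426 ± 51.6), Itga3 (614 ± 33.5), Itgav (272 ± 9.90), Itgb6 (244 ± 13.3), Itga2 (197 ± 40.6), Itga5 (109 ± 6.08), Itgb3 (36.9 ± 5.60) and Itgb8 (18.8 ± 2.40). Of these neighbours, Itgb6 and Itga2 overlapped over the P5 libraries. At P12 Itgb1 (3238 ± 61.6) and Itgb5 (1741 ± 105) stayed ahead, followed by Itgav (301 ± 16.6), Itgb3 (291 ± 58.9), Itga3 (269 ± 22.4), Itga5 (185 ± 25.3), Itga2 (153 ± 11.5), Itgb6 (112 ± 43.8) and Itgb8 (90.5 ± 25.4). Itgb3 overlapped there with Itgav and Itga3, Itga5 with Itga2, Itga2 with Itgb6, and Itgb6 with Itgb8.

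Among the α partners of β1, Itga3 and Itga5 moved in opposite directions. Itga3 (ENSMUSG00000001507, GRCm38 chromosome 11, 95044474 to 95076801 on the reverse strand) had normalized counts of 3256, 3455, 3634 and 3674 at P5 against 1565, 1586, 1638 and 1348 at P12, a log2 fold change of -1.19 (SE 0.07, edgeR adjusted p = 1.8e-07). Against Itgb1, its log2 ratio went from -0.99 ± 0.16 (SD, n = 4) to -3.11 ± 0.14, a difference of -2.12 (exact permutation test, two-sided p = 0.029). Lama3 and Lamb3, which encode chains of its ligand laminin-332, were also lower at P12, with log2 fold changes of -0.94 and -1.22. Itga5 (ENSMUSG00000000555, GRCm38 chromosome 15, 103344286 to 103366763 on the reverse strand) had 499, 539, 572 and 536 at P5 against 1084, 928, 826 and 816 at P12, a log2 fold change of 0.77 (SE 0.10, edgeR adjusted p = 4.2e-05), and Fn1, its ligand fibronectin, was higher by 0.65. The ratio of Itga5 to Itgb1 did not pass, at -3.69 ± 0.14 and -3.86 ± 0.22 (exact permutation test, two-sided p = 0.26). Itga5 and all 7 mesenchymal markers were highest at P12 in replicate 1 and lowest in replicate 4, among them Col3a1 at 86935 and 32390.0. The 7 mesenchymal markers went both ways between the ages, with 3 higher, 2 lower and 2 not called. For scale, 28.8% of all genes tested were higher and 28.4% lower. The 7 markers summed to 886772 to 1068760.0 normalized counts at P5 and 740297 to 993139 at P12. The part of mesenchyme in the Itga5 level was not tested.

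Itga2 (ENSMUSG00000015533, GRCm38 chromosome 13, 114833081 to 114932100 on the reverse strand) had normalized counts of 1242, 1318, 1233 and 1839 at P5 against 1076, 991, 1191 and 1097 at P12. The ages did not overlap, but the gap was narrow, and P5 replicate 5 was far above the other P5 libraries. The log2 fold change was -0.37 (SE 0.12, edgeR adjusted p = 0.022), and without P5 replicate 5 it was -0.22 (adjusted p = 0.025). The call was lost without P12 replicate 2, at -0.33 (adjusted p = 0.058), and under total count scaling, at -0.0012 (adjusted p = 0.99). Relative to Itgb1 the fall was larger, from a log2 ratio of -2.32 ± 0.36 to -3.60 ± 0.11 (exact permutation test, two-sided p = 0.029).

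The other 18 integrin subunit genes were also tested, of which 9 were higher and 4 lower at P12, with a median log2 fold change of 0.67 against 0.01 for all genes. Of all genes tested, 28.8% were higher and 28.4% lower. The largest rises were those of Itgb7, at 3.45 (SE 0.19, edgeR adjusted p = 6.7e-08), and of Itgad, a chain of some leukocytes, which had 0 to 4 reads in the P5 libraries and 10 to 22 in those of P12 (adjusted p = 0.0023). Itgae, which pairs with β7 in an integrin of lymphocytes within epithelium, was also higher, by 2.82 (adjusted p = 2.1e-04). It had only 1 to 9 reads in the P5 libraries, near the floor, and 39 to 59 in those of P12. Per kilobase, mean normalized counts at P12 were 189 for Itgb7 and 9.26 for Itgae. The leukocyte chain Itgal was at -0.19 (adjusted p = 0.43) and Itgb2 at 0.75 (adjusted p = 0.014) with overlap between the ages. Of 5 macrophage and leukocyte markers 4 were higher, with sums of 765 to 1086 normalized counts at P5 and 1198 to 1572 at P12, and their part in these levels was not tested. Itga6, the laminin receptor chain that pairs with β4 in hemidesmosomes and with β1, rose from 5116 ± 329 (SD, n = 4) to 18761 ± 1195, or by 1.87 on the log2 scale (adjusted p = 1.1e-08), while Itgb4 was lower at -0.42 (adjusted p = 0.0031), a call lost under total count scaling at -0.04 (adjusted p = 0.72). Itga8, the receptor chain for nephronectin, rose by 2.90 (adjusted p = 9.0e-07), whereas Npnt, which encodes that ligand, fell by 2.06 (adjusted p = 1.7e-07). The largest falls were those of Itga4, at -1.72 (adjusted p = 3.8e-07), and Itga1, a collagen receptor chain, at -0.84 (adjusted p = 4.7e-05).

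**Figure D4:**
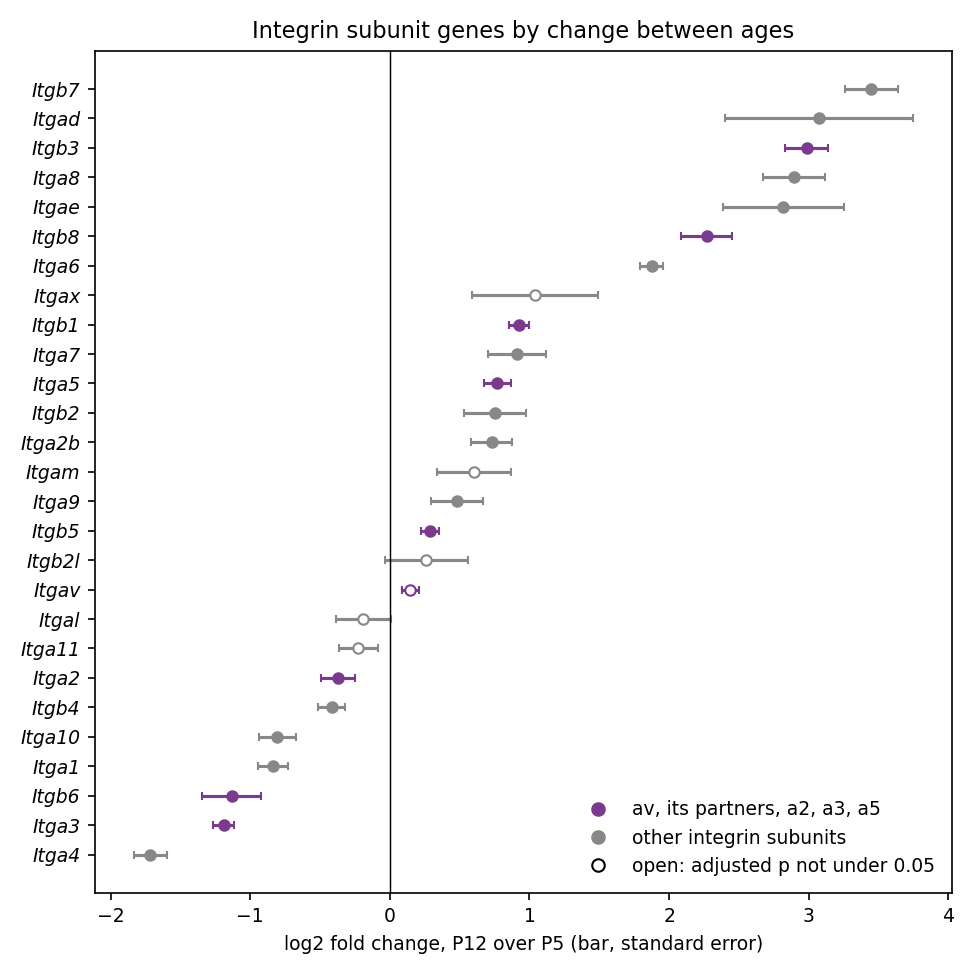
Log2 fold change (P12 over P5) with its standard error for all 27 integrin subunit genes, the 9 genes in purple and the other 18 in grey, with open points for those whose adjusted p was not under 0.05. Itgb3 and Itgb8 lie near the top and Itgb6 and Itga3 near the bottom, below all but Itga4.

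Of the 16 genes for ligands with an RGD motif or known to bind these integrins, 15 were tested, 9 were higher and 3 lower, with a median log2 fold change of 0.65. The shares over all genes tested were 28.8% higher and 28.4% lower. Postn, which encodes periostin, rose by 3.95 (SE 0.28, edgeR adjusted p = 4.3e-07), and Spp1, which encodes osteopontin, by 2.16 (adjusted p = 1.9e-04). Tnc, which encodes tenascin-C, rose from 8300.4 ± 405 to 19308 ± 2519 (SD, n = 4 each), by 1.22 (adjusted p = 1.2e-06). Npnt, at -2.06, and Nov, at -0.95, fell the most, but the Nov call was lost under total count scaling at -0.58 (adjusted p = 0.065). Of the 9 collagen and laminin ligand genes 5 were lower, among them Lama5 at -1.13 (adjusted p = 2.2e-04), and 1, Col3a1, was higher, by 3.64 (adjusted p = 1.4e-06), with a median log2 fold change of -0.36 against 0.01 for all genes. Of the collagens among them only Col1a2 was lower, at -0.36 (adjusted p = 0.033), which became 0.02 (adjusted p = 0.91) under total count scaling, and Col1a1, Col4a1 and Col4a2 did not pass. Postn, Spp1 and Col3a1 were all lowest at P12 in replicate 4.

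For the latent TGF-β that αvβ6 and αvβ8 act on, 4 of 9 genes were higher and 2 lower (median log2 fold change 0.21). Over all genes tested these shares were 28.8% and 28.4%. Tgfb1 and Tgfb3, whose propeptides hold an RGD site, were higher, Tgfb1 from 3023 ± 147 to 5655 ± 625 (SD, n = 4 each), by 0.90 (adjusted p = 3.8e-06), and Tgfb3 by 0.22 (adjusted p = 0.044) with overlap between the ages. Tgfb2 was lower, at -0.58 (adjusted p = 2.5e-04), a call lost under total count scaling at -0.20 (adjusted p = 0.088). Ltbp1, which anchors latent TGF-β in the matrix, rose by 2.30 (adjusted p = 7.4e-08), and Ltbp2, which does not bind it, fell, at -1.57 (adjusted p = 6.0e-05). Lrrc32, which holds latent TGF-β at the cell surface, rose by 0.80 (adjusted p = 0.0042).

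Downstream, 3 of 11 receptor, Smad and target genes were higher and 4 lower, with a median log2 fold change of -0.16. Among all genes tested, 28.8% were higher and 28.4% lower. The 3 receptor genes were all lower, Tgfbr1 at -0.97 (adjusted p = 3.5e-07), Tgfbr2 at -1.12 (adjusted p = 4.5e-07) and Tgfbr3 at -2.18 (adjusted p = 2.8e-07). Smad7, which encodes an inhibitor of the pathway, was lower at -0.75 (adjusted p = 1.2e-04), while the target gene Tgfbi rose by 1.51 (adjusted p = 1.1e-06). Skil and Tgif1 did not pass.

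Of the 21 genes for proteins that bind integrin tails or link them to actin, 9 were higher and 8 lower, with a median log2 fold change of 0.16. All genes tested had shares of 28.8% higher and 28.4% lower. Tns4, a tensin of epithelia, rose from 940.0 ± 128 to 6575 ± 1043 (SD, n = 4 each), by 2.81 (SE 0.13, edgeR adjusted p = 2.3e-08), and Fermt3, the kindlin of blood cells, by 2.24 (adjusted p = 2.9e-07). The other kindlins were lower, Fermt1 of epithelia at -0.29 (adjusted p = 0.011) and Fermt2 at -0.30 (adjusted p = 0.004), although both turned to 0.08 under total count scaling and did not pass there. Vcl, which encodes vinculin, was higher at 1.03 (adjusted p = 6.0e-07). Bcar1 and Src, which encode proteins of focal adhesion signalling, had the largest falls among the adaptors, Bcar1 at -0.97 (adjusted p = 8.6e-07) and Src at -0.63 (adjusted p = 6.0e-06), which under total count scaling were -0.60 (adjusted p = 1.0e-04) and -0.26 (adjusted p = 0.007).

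Genes whose levels followed Itgb6 closely were found by the root mean square difference between log2 normalized counts, each centred on the gene's own mean, over all 8 libraries and 11344 genes with a mean normalized count of at least 100. Those described here are Cd55, which protects cells from complement, at 0.11 log2 units, Sh3bgrl2 at 0.12, and Syt9 and Bcar3 at 0.14 each. Cd55 went from 5184 ± 278 (SD, n = 4) to 2259 ± 718, with 3266 in P12 replicate 4. Of the listed genes, Lama3 was at rank 26 and Lamb3 at 29, while Itga3 was at 611 and Itgav at 6248. These likenesses are descriptions, since the 8 libraries fall into 2 ages.

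**Figure D5:**
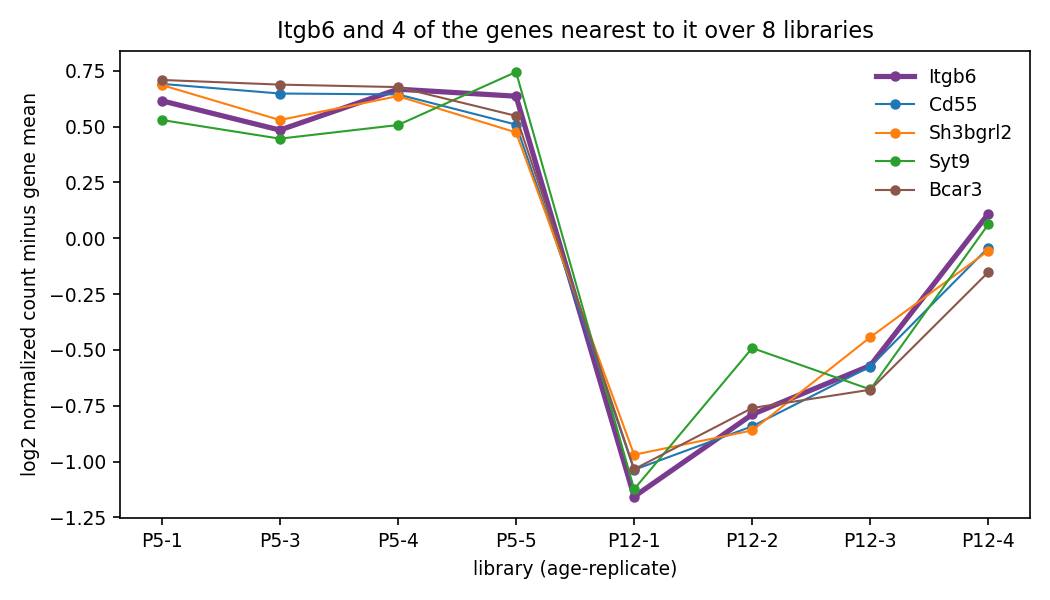
Log2 normalized count minus the gene's mean for Itgb6 (thick line) and 4 of the genes nearest to it in each library (age, then replicate number); lines only join the points of a gene. All 5 genes lie above their mean in the P5 libraries, below it in P12 replicates 1 to 3 and near it in P12 replicate 4.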

How the data were processed

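RNA-seq was analysed for first molar enamel organs of C57BL/6 wt pups, in 4 pools of 5 pups at each of P5 and P12. The authors deposited whole-number read counts per gene, without normalization, with each gene's position and length. The counting program, aligner and use of strand are not given in the sources used here. The submitters' processing notes name the build mm39, but all 9 genes have the coordinates of GENCODE M21 on GRCm38, which are used here. Libraries were matched to columns by title. No pair of same-age libraries agreed within sampling noise.

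The main test was edgeR 4.0.16 under R 4.3.3 (filterByExpr, TMM, glmQLFit and glmQLFTest, no covariate) over 16440 genes, with Benjamini-Hochberg adjustment and a threshold of 0.05. Every adjusted p-value without a named tool comes from this test. DESeq2 1.42.0, which the study names, limma-voom (limma 3.58.1), other scalings and filters, libraries left out and the replicate number as a block were alternatives. The tests were tried on simulated data first. Ratios used a pseudocount of 1, and exact permutation tests used scipy 1.17.1. Intervals of fold changes are at 95%, and the floor of 3 counts covers counting error only. The members and lists were chosen with earlier results of these data known. Named are the 9 genes, changed integrin subunits, the 2 largest rises and falls per list without overlap between ages, markers that move with a member, and the 5 genes nearest to Itgb6. Some genes that this rule names are not reported here. Fn1, Tnc, Tgfb3, Lrrc32, Lama3, Tgfbr1, Smad7, Skil, Tgif1, Fermt1, Fermt2, Vcl, Lama5, Col1a1, Col4a1, Col4a2, Itgal and the Itgb3 cell markers that did not pass were added after their values were seen.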

Additional observations from a re-analysis of the deposited data

Results flagged for a closer look

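Of 40 sets of 4 libraries (the 9 genes, the 10 ratios and the Itgb6 share, by age), 5 contained 1 value far from the other 3 by Dixon's criterion, where 2 are expected by chance. The ratios and the share use the counts of the same genes, so the sets are not independent. Whether 5 exceeds chance can therefore not be judged. At P5, replicate 5 had 168 normalized counts of Itgb8 against 219 to 225 in the others, and 1839 of Itga2 against 1233 to 1318. At P12, replicate 4 had 1419 of Itgb8 against 821 to 906, with a log2 ratio to Itgav of -1.29 against -1.90 to -1.84. The log2 ratio of Itga3 to Itgb1 in the same library was -3.32 against -3.06 to -3.01. These are the libraries that also stand apart in stage markers.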

How the results depend on the processing

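Of 153 alternative fits of the 9 genes, 17 each, 146 kept their direction and their side of the threshold, and none reversed. The others were Itgav, which passed with DESeq2 (0.15), total count scaling (0.52) and without P12 replicate 1 (0.17), and Itga2, which was lost under total count scaling (-0.0012), without P12 replicate 2 (-0.33), with the replicate block over 6 libraries (-0.17, adjusted p = 0.098) and in the same 6 libraries without the block (-0.17), which hold fewer samples. Over single libraries left out, log2 fold changes were -1.43 to -0.98 for Itgb6, 0.11 to 0.17 for Itgav and -0.43 to -0.22 for Itga2. Other causes were not tested. Total count scaling moved the median of all genes from 0.01 to 0.38 and the share of calls that were higher at P12 from 50.3% to 79.2%. Of the 9411 genes called, 3541 changed by at least 1 log2 unit. Replicate numbers 1, 3 and 4 occur at both ages but did not pair the libraries (correlation of deviations 0.04, 0.01 and -0.04), and the block gave 7710 calls against 8117 without it. The Itgb6 share fell by 5.10 percentage points, and not divided by length it fell by 8.83. The fit without both P5 replicate 5 and P12 replicate 4, chosen after seeing the data, gave 0.088 for Itgav. Of the other listed genes called lower, 12 lost the call under total count scaling. Cdh1, Col1a2, Fermt1, Fermt2, Sharpin and Tns1 turned to log2 fold changes of 0.02 to 0.14, and Itgb4, Nov, Tgfb2, Dmp1, Ptk2 and Pxn stayed below 0, at -0.58 to -0.04.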
